A study of Mus musculus with 20 samples.

Results

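The genes described here are 38 markers of Kupffer cells and of other leukocytes, measured in whole liver of male C57BL/6J mice. They were chosen by name, and 38 of 38 had a probe set whose annotation gave that symbol alone, out of 18193 genes so represented. A gene with several probe sets was read from the one whose mean score was highest. The low-fat group (10 mice, 10 kcal% fat) and the high-fat group (10 mice, 45 kcal% fat) were labelled as 8 weeks old. Both had arrived at 3 weeks of age, had eaten the low-fat diet for 1 week of acclimation, and then received their diet for 4 weeks before a 16 h fast and excision of the liver. Total RNA of each liver was hybridised to an Affymetrix 3′ array, so a score sums every cell type in the piece of tissue. A smaller number of leukocytes and less RNA per leukocyte therefore cannot be told apart.

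Kupffer cells are the macrophages that live in the liver sinusoids, where they take up bacteria, old red cells and debris from the portal blood. They are kept mainly by self-renewal under signals through the receptor Csf1r, while monocytes recruited from the blood through Ccr2 can join or replace them. Dendritic cells, B cells and activated macrophages present peptides on MHC class II molecules, and T, natural killer and B cells and neutrophils make up much of the remaining leukocytes. Longer overfeeding is known as a setting in which monocyte-derived macrophages gather in the liver.

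Values are deposited scores that run like log2 intensities but are strongly compressed between arrays, by a different amount for each probe set. Over the 20 arrays the SD of a member ran from 3.41e-06 to 0.00146, and 3 of the 38 members (Marco, Cd163 and H2-Aa) exceeded 0.001. Sizes are therefore standardised differences, the high-fat mean minus the low-fat mean in units of the SD within diets, with 95% intervals from the noncentral t distribution. A mouse's value is its score minus the low-fat mean in the same units. The table has no detection calls, so a low score cannot be told from background. Hepatocyte markers lay high in all livers (Alb at 14.82 and Ttr at 14.53, near the upper end of the scale), and the Kupffer cell gene Clec4f stood at 9.71. Array medians ran from 6.56702 to 6.56720. Poly-A spike-in probe sets, averaged as standardised values, ran from 0.128 to 0.921 on the low-fat diet and from -2.27 to 1.09 on the high-fat diet. What this difference contributed was not tested beyond the covariate named with Cx3cr1 and S100a9.

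The diets were compared to ask whether 4 weeks of high-fat feeding shifted the liver's leukocyte markers. None of them moved past the threshold: 0 of 38 members had an adjusted p under 0.05 by limma, where 3.49% of all 18193 genes did (1.71% higher on high fat and 1.78% lower). The lowest adjusted p of a member was 0.182, for S100a9. At an unadjusted p under 0.05 there were 2 members (5.26%), S100a9 and Cx3cr1, both lower on the high-fat diet, against 17.0% of all genes in either direction and 8.01% in that one. The rank sum test (3.13% of genes called) and the unmoderated model also called 0 members. In 38 of 38 members the values of the diets overlapped, as they did for all genes but 0.275%. The median standardised difference was -0.07 over the members and 0.04 over all genes, and 27 of 38 members (71.1%) lay within 0.5 SD of 0, as did 55.8% of all genes. These intervals are wide: 30 of the 38 lay within 1.5 SD on either side of 0, and 37 within 2 SD, so a shift of about 1 SD could not be seen for most members. Array scaling changed the calls. Quantile normalisation called 6 members (1 higher and 5 lower), beside 8.59% of genes (144 up and 1344 down), and centring arrays on their medians called 23, all lower, beside 83.0% of genes (215 up and 14883 down). Those scalings moved the median standardised difference of all genes to -0.41 and -1.29, and that of the members to -0.61 and -1.28.

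**Figure D1:**
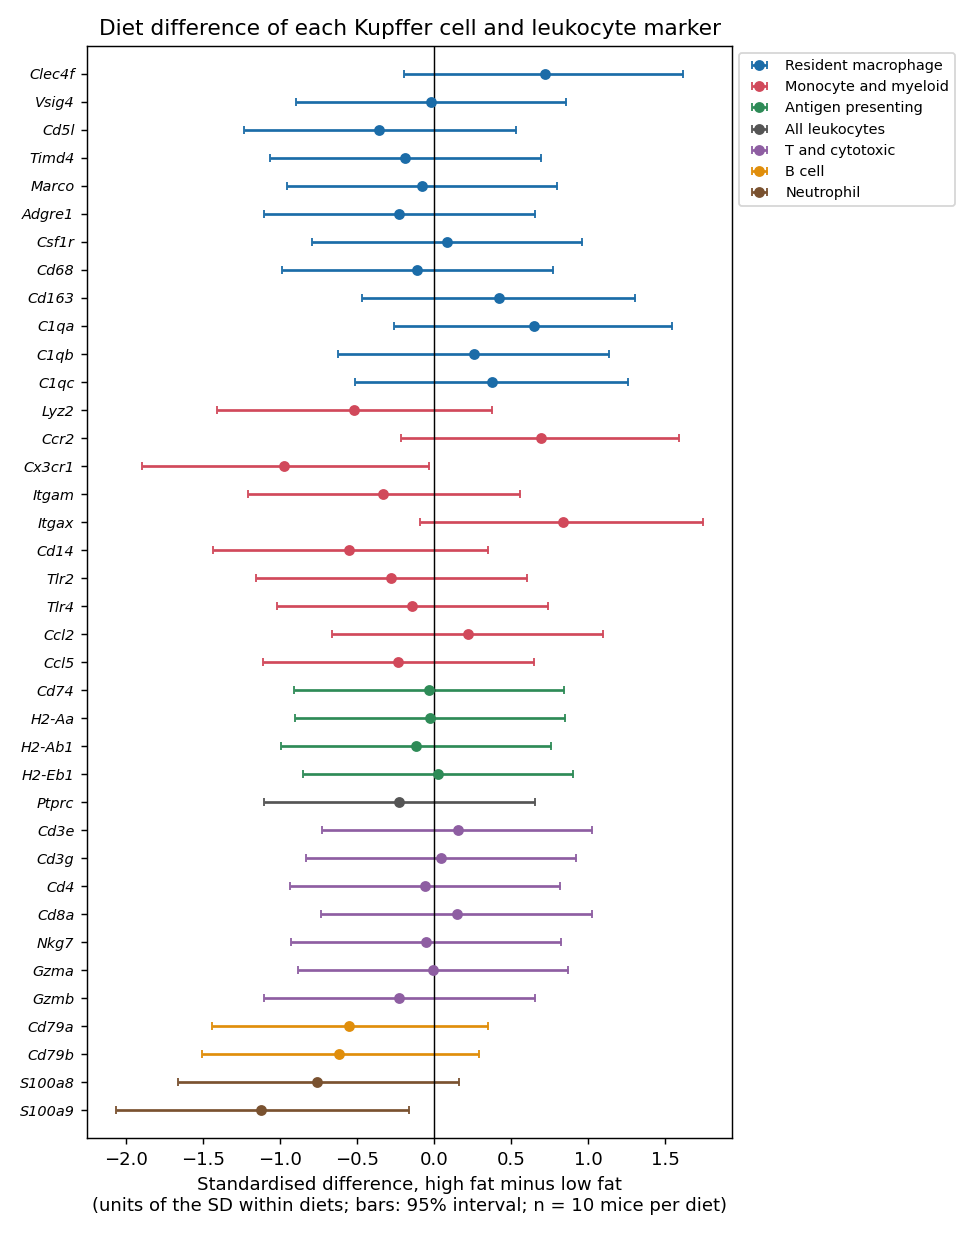
Standardised difference (high-fat minus low-fat, in SDs within diets) of each of the 38 markers, coloured by role, with 95% intervals and 10 mice per diet. S100a9 (-1.13) and Cx3cr1 (-0.98) are the only markers whose interval excludes 0, and neither passed the adjusted threshold.

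The 12 resident macrophage genes split evenly, with 6 above and 6 below the low-fat mean, a median of 0.03, and 0 past the threshold. Single mice moved that split: 5 lay above without high-fat replicate 3 (median -0.19) and 9 without low-fat replicate 9 (median 0.18). Clec4f, a lectin carried by Kupffer cells, had values from -0.94 to 2.24 (median 0.04) on the low-fat diet and from -0.40 to 2.52 (median 0.55) on the high-fat diet. The high-fat mice reached as high as the low-fat mouse at the top and not as low as the lowest ones. The difference was 0.72 (95% interval -0.20 to 1.62, limma adjusted p = 0.442), and the high-fat mouse was higher in 73 of the 100 pairs of mice. Vsig4, a complement receptor of the same cells, stood at -0.02 (-0.90 to 0.86). Cd5l, a protein secreted by macrophages, stood at -0.36 (-1.24 to 0.53), at -0.71 without high-fat replicate 3, and at 1.87 after quantile normalisation, a call in the other direction. Timd4, a receptor for dying cells on long-lived Kupffer cells, stood at -0.19 (-1.06 to 0.69). The scavenger receptor Marco (-0.08), the macrophage surface protein Adgre1 (-0.23), the growth factor receptor Csf1r (0.08) and the lysosomal protein Cd68 (-0.11) were also close to 0. Csf1r was called lower after quantile normalisation (-1.49) and median centring (-1.31), and Marco stood at -0.46 without high-fat replicate 3.

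The 3 chains of complement C1q, which macrophages make, were all above the low-fat mean on the deposited scale, but C1qb was called lower after quantile normalisation (-1.54, limma adjusted p = 0.0374) and after median centring (-1.11, limma adjusted p = 0.0275). On the deposited scale they stood as follows: C1qa at 0.65 (95% interval -0.26 to 1.54), C1qb at 0.26 (-0.62 to 1.14) and C1qc at 0.38 (-0.51 to 1.26). None passed (limma adjusted p = 0.496, 0.828 and 0.733). For C1qa, low-fat mice ran from -1.91 to 1.51 (median -0.05) and high-fat mice from -1.11 to 2.19 (median 0.66). The ranges overlapped over most of their length. Another 2 probe sets of C1qb stood at -0.37 and -0.31, opposite in sign to the one used.

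Cd163, the scavenger receptor for haemoglobin bound to haptoglobin, ran over a wider range on the high-fat diet. Low-fat mice ran from -0.87 to 1.02 (median -0.20) and high-fat mice from -1.63 to 1.57 (median 0.92). Among the high-fat mice, replicates 1, 3 and 5 lay between -1.63 and -1.21 and the other 7 lay above the low-fat median. Its score had an SD of 0.000687 on the low-fat and 0.00158 on the high-fat diet. This was not particular to Cd163. Lyz2 (0.000124 and 0.000287) and Tlr4 (1.17e-05 and 2.35e-05) also had the larger SD on high fat, and Itgam (4.96e-06 and 3.05e-06) the smaller. For Cd163 the difference of means was 0.42 (-0.47 to 1.31, limma adjusted p = 0.690), and the difference in spread was not tested.

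Among 10 monocyte and general myeloid genes, 3 lay above and 7 below the low-fat mean, with a median of -0.26 and 0 past the threshold. Cx3cr1, the fractalkine receptor of patrolling monocytes and some tissue macrophages, had values from -0.90 to 1.43 (median 0.01) on the low-fat diet and from -3.11 to 0.82 (median -0.84) on the high-fat diet. High-fat mice held the lowest values, and 2 of the 10 lay above the low-fat median. The difference was -0.98 (95% interval -1.90 to -0.03, limma adjusted p = 0.284), and the other probe set of Cx3cr1 stood at -0.33. As the mean of its probe sets Cx3cr1 stood at -0.60 (limma adjusted p = 0.543). With the spike-in mean as a covariate it stood at -0.68 (limma adjusted p = 0.580), and with replicate number as a block at -1.03 (limma adjusted p = 0.314). Ccr2, the chemokine receptor that brings monocytes into tissue, stood at 0.70 (-0.22 to 1.59, adjusted p = 0.460 by limma), with 9 of 10 high-fat mice above the low-fat median. Its other 3 probe sets stood at 1.55, 0.34 and 0.30. The largest of these had an unadjusted p of 0.0024 and an adjusted p of 0.0730 over all 45037 probe sets, of which 2.32% passed.

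Itgax, the CD11c integrin of dendritic cells and some macrophages, had low-fat values from -1.84 to 1.31 (median 0.02) and high-fat values from -1.28 to 1.83 (median 1.01). In 9 of 10 high-fat mice it lay above the low-fat median, and the high-fat mouse was higher in 74 of 100 pairs, the highest share among the members. The difference, 0.84 (-0.09 to 1.74, limma adjusted p = 0.377), did not pass. Its direction turned with the scaling, to -1.87 after quantile normalisation (limma adjusted p = 0.0215) and -1.26 after median centring (limma adjusted p = 0.0180), both past the threshold. Lyz2, the lysozyme of myeloid cells, stood at -0.52 (-1.41 to 0.38), or -0.94 without high-fat replicate 3, and Itgam, the CD11b integrin, at -0.33 (-1.21 to 0.56). Of the receptors that sense bacterial products, Cd14 stood at -0.55, Tlr2 at -0.28 and Tlr4 at -0.14. The chemokine genes Ccl2, which attracts monocytes, and Ccl5, which attracts T cells and monocytes, stood at 0.22 and -0.23. Ccl2 was called lower (-1.32) after median centring.

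**Figure D2:**
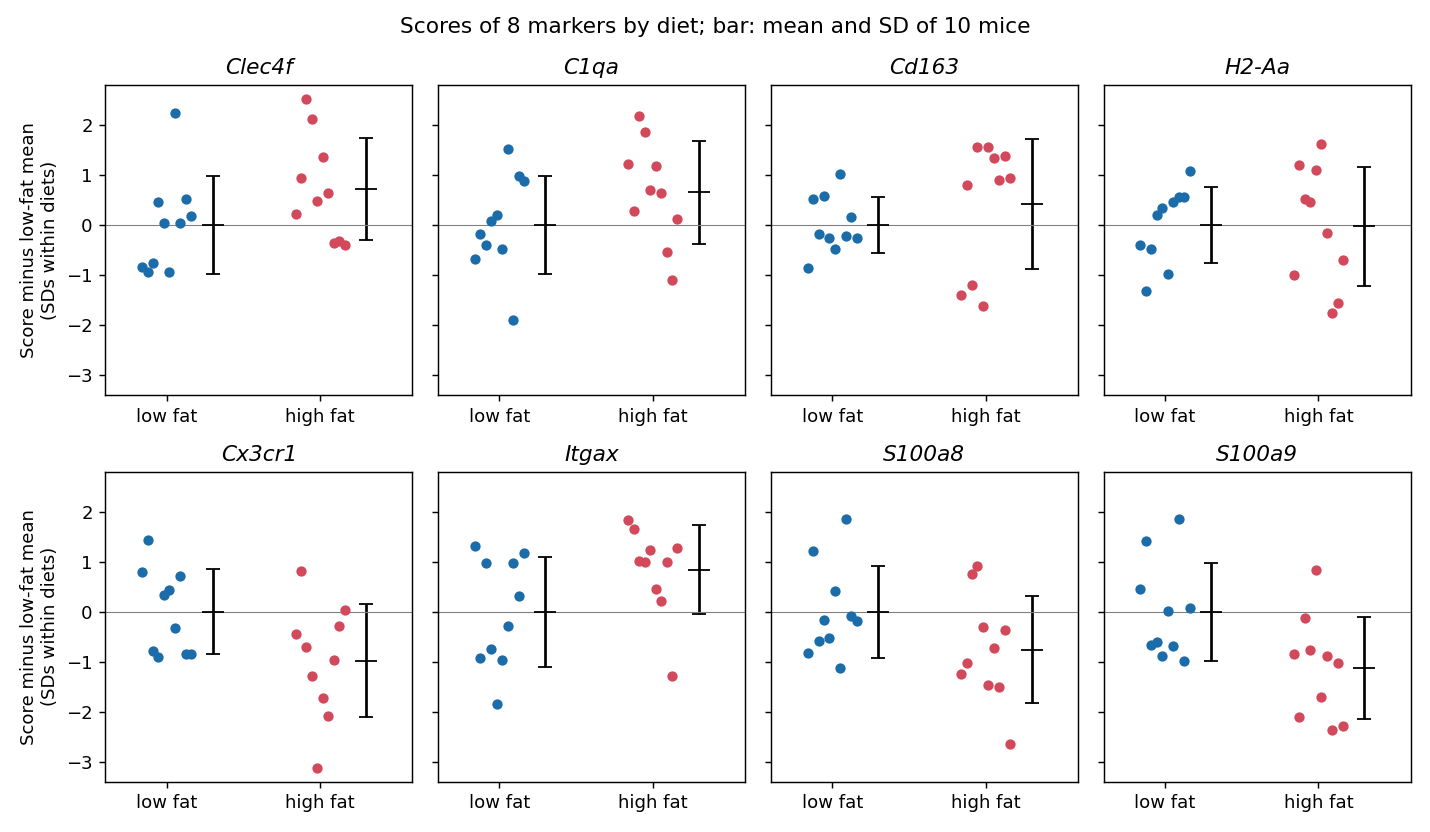
Score of 8 markers in every mouse, as the deviation from the low-fat mean in SDs within diets, with the mean and SD of 10 mice beside each group. The diets overlap in all 8 panels; in Cd163 the high-fat mice fall into 3 low and 7 high values.

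The MHC class II genes differed little between the diets. H2-Aa (the alpha chain of I-A) stood at -0.03 (95% interval -0.90 to 0.85), H2-Ab1 (its beta chain) at -0.12 (-0.99 to 0.76), H2-Eb1 (the beta chain of I-E) at 0.03 (-0.85 to 0.90), and Cd74 (the invariant chain that guides class II molecules to peptide loading) at -0.03 (-0.91 to 0.84). For H2-Aa, low-fat mice ran from -1.33 to 1.08 (median 0.27) and high-fat mice from -1.75 to 1.62 (median 0.15). The high-fat values reached further at both ends. Ptprc, the CD45 phosphatase of all leukocytes, stood at -0.23 (-1.10 to 0.66).

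In the T and cytotoxic list 3 of 7 genes lay above and 4 below the low-fat mean, and 7 of 7 lay within 0.5 SD of 0. The T cell receptor chains Cd3e and Cd3g stood at 0.15 and 0.05, and the coreceptors Cd4 and Cd8a at -0.06 and 0.15. After median centring 7 of 7 were called lower, and Cd3e, Cd3g and Cd8a turned sign (-1.19, -1.31 and -1.31). The granule genes of cytotoxic cells, Nkg7, Gzma and Gzmb, stood at -0.05, -0.01 and -0.23. The B cell receptor signalling chains were both below the low-fat mean, Cd79a at -0.55 (95% interval -1.44 to 0.35) and Cd79b at -0.61 (-1.51 to 0.29).

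Neutrophil genes had the largest difference among the members, at low scores. The mean score of S100a9 was 6.24 and that of S100a8 6.35, below the array medians (6.57). S100a9, which with S100a8 forms calprotectin, a calcium-binding complex abundant in neutrophils, ran from -0.99 to 1.86 (median -0.29) on the low-fat diet and from -2.36 to 0.84 (median -0.96) on the high-fat diet. All values below -0.99 came from high-fat mice, yet 2 mice of that diet lay above the low-fat median. The difference was -1.13 (95% interval -2.06 to -0.16, unadjusted p = 0.0192, adjusted p = 0.182 by limma), and the high-fat mouse was higher in 19 of 100 pairs. S100a8, read by a probe set whose suffix marks possible cross-hybridisation, ran from -1.12 to 1.84 (median -0.17) and from -2.64 to 0.91 (median -0.88), a difference of -0.76 (-1.66 to 0.16, limma adjusted p = 0.409). Without any single array the adjusted p of S100a9 ran from 0.0823 (without high-fat replicate 5) to 0.292. With the spike-in mean as a covariate, S100a9 stood at -1.69 (limma adjusted p = 0.0778), and with replicate number as a block at -0.86 (limma adjusted p = 0.365). It passed after quantile normalisation (-1.45, limma adjusted p = 0.0494) and after median centring (-1.73, limma adjusted p = 0.0178), scalings under which 8.59% and 83.0% of all genes passed. Of 10 other measured neutrophil genes, 7 lay above the low-fat mean and 0 passed, with a median of 0.23. Among them were the chemokine receptor Cxcr2 (0.66), the iron-binding Lcn2 (0.43) and the antimicrobial Camp (-0.40).

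Several markers varied together from mouse to mouse within the diets. This was examined for 12 pairs, chains of the same complex or markers of the same cell, as deviations from the diet means over 20 mice, with permutation within diets (100000 resamples, two-sided, adjusted over the 12 pairs). Values of a pair come from the same array and so share its RNA preparation.

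The class II genes varied most tightly. H2-Aa and H2-Eb1 had r = 0.98 and rho = 0.96, H2-Aa and H2-Ab1 r = 0.97 and rho = 0.95, and H2-Aa and Cd74 r = 0.96 and rho = 0.97. Each of these had a permutation p of 1e-05, the smallest that the resampling can give, and an adjusted p of 3.00e-05. Within the diets r was between 0.95 and 0.97 on low fat and between 0.97 and 0.99 on high fat, and without the 2 mice farthest from the median of H2-Aa it was between 0.95 and 0.98. Of 18192 other genes, the 3 closest to H2-Aa were H2-Eb1, H2-Ab1 and Cd74, in that order. The probe sets used for H2-Aa and H2-Ab1 carry suffixes for possible cross-hybridisation. H2-Eb1 and Cd74, whose probe sets do not, were compared after the data had been seen and had r = 0.96 and rho = 0.97 (permutation p = 1e-05, adjusted p = 2.60e-05 over 13 pairs). High-fat replicate 6 was the highest of the 20 mice in 4 of the 4 class II genes, and high-fat replicate 8 the lowest in 3.

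Because the class II genes varied together, the stretch upstream of the start is shown from RefSeq (GRCm38.p6) for H2-Aa at chr17:34287824-34287943 (minus strand) and H2-Eb1 at chr17:34305747-34305866 (plus strand). Each line gives the 120 bases before the annotated start, 5′ to 3′ on the strand of the gene, with the letters of the Y box in capitals.
H2-Aa: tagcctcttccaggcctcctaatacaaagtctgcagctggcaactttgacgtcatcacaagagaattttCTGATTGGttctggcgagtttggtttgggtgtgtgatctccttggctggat
H2-Eb1: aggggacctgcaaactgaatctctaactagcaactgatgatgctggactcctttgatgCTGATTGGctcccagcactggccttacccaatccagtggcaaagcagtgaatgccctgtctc
The Y box is an element of class II promoters bound by the factor NF-Y, and CTGATTGG was searched on both strands. It lay 51 to 44 bases before the start in H2-Aa and 62 to 55 bases before it in H2-Eb1, in the same orientation. Of 32851 windows of 300 bases around starts, 4.1% held these letters. Of the 27 members with such a window 3 held them, the third being Gzma, where they lay after the start. H2-Ab1 and Cd74, which varied with H2-Aa as closely, were not among the 3 and are not shown. Only this exact string was searched and not every member had a window, so H2-Ab1 and Cd74 may still carry a Y box. No binding was measured here, and a match is a description of the sequence.

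The C1q chains also varied together. C1qb and C1qc had r = 0.90 and rho = 0.90 (permutation p = 1e-05, adjusted p = 3.00e-05), C1qa and C1qb r = 0.80 and rho = 0.85 (adjusted p = 7.20e-05 for r and 4.00e-05 for rho by permutation), and C1qa and C1qc r = 0.80 and rho = 0.84 (permutation adjusted p = 1.00e-04 and 4.00e-05). Within diets r lay between 0.71 and 0.93, and without the 2 farthest mice between 0.81 and 0.87. The gene closest to C1qb among 18192 others was C1qc, while C1qa ranked 10 for C1qb and 16 for C1qc. After quantile normalisation these 3 relations did not hold (r = -0.02, 0.33 and 0.18 for C1qa with C1qb, C1qa with C1qc and C1qb with C1qc).

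Kupffer cell markers also varied together. Clec4f and Vsig4 had r = 0.82 and rho = 0.76 (permutation adjusted p = 1.03e-04 and 5.55e-04), 0.82 within each diet, and 0.63 without the 2 farthest mice. Among 18192 other genes, the closest to Vsig4 was Clec4f, while Vsig4 ranked 5 for Clec4f. Clec4f and Cd5l had r = 0.73 and rho = 0.78 (adjusted p = 5.33e-04 and 3.94e-04 by permutation), and r = 0.65 without the 2 farthest mice. Cd5l ranked 21 for Clec4f, and Clec4f ranked 72 for Cd5l. After quantile normalisation both were lost (r = 0.10 and -0.33). High-fat replicate 3 was the highest of the 20 mice in 9 of the 12 resident macrophage genes, with a median of 2.02 SD above the low-fat mean. In that mouse 11 of the 12 genes lay above the low-fat mean, and Cd163 lay below it, at -1.21. Low-fat replicate 7 had a median of 1.49, and the lowest medians were those of high-fat replicate 9 (-1.13) and high-fat replicate 8 (-0.91), followed by low-fat replicate 2 (-0.85).

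S100a8 and S100a9 had r = 0.74 and rho = 0.68 (permutation adjusted p = 5.33e-04 and 0.0024), r = 0.801 on low fat, 0.68 on high fat and 0.70 without the 2 farthest mice. Quantile normalisation lowered r to 0.42 (adjusted p = 0.189). In low-fat replicate 8 both genes were at their highest of all 20 mice.

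No relation was detected within the lymphocyte pairs on the deposited scale. Most of these genes had low scores. The mean scores of Cd79a, Cd79b, Cd3g, Nkg7 and Gzma ran from 6.366 (Cd3g) to 6.525 (Cd79a), below the array medians (6.57). Cd3e stood at 7.335. The genes of the C1q, class II and Kupffer cell pairs lay above the medians. S100a8 (6.35) and S100a9 (6.24), which did vary together, lay below them. What the level contributed to the contrast was not tested. Cd79a and Cd79b had r = 0.19 and rho = 0.31 (permutation p = 0.425 and 0.184, adjusted p = 0.463 and 0.221). For Cd3e and Cd3g r was 0.05 and rho 0.11 (p = 0.843 and 0.662 by permutation, the same after adjustment), and for Nkg7 and Gzma 0.29 and 0.30 (permutation p = 0.229 and 0.204, adjusted p = 0.275 and 0.223). For Nkg7 and Gzma r was -0.22 on low fat and 0.60 on high fat, a difference that was not tested, for Cd79a and Cd79b 0.28 and 0.08, and for Cd3e and Cd3g -0.17 and 0.23. Among 18192 other genes ordered by r, Cd79b ranked 4074 for Cd79a and Cd3g ranked 8105 for Cd3e. After quantile normalisation Cd3e and Cd3g had r = 0.62 (permutation p = 0.00707, adjusted p = 0.0212) and passed. After arrays were centred on their medians, the pairs of Cd79, Cd3 and granule genes had r = 0.97, 0.97 and 0.96. That step subtracts the same number from every gene of an array.

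**Figure D3:**
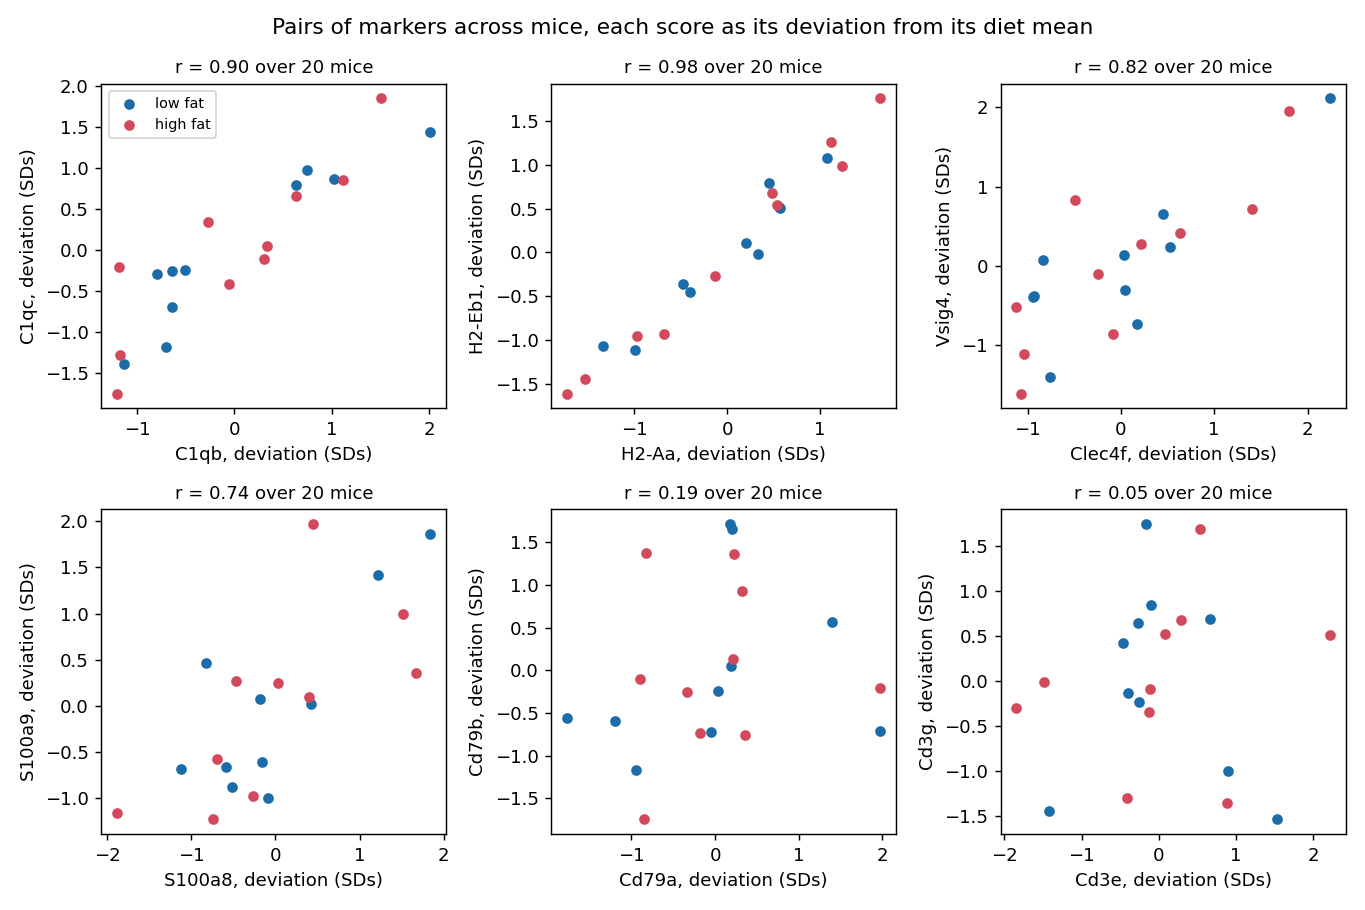
Pairs of markers over 20 mice, each axis the deviation of a score from its diet mean in SDs within diets, with low-fat mice in blue and high-fat mice in red. C1qb with C1qc, H2-Aa with H2-Eb1, Clec4f with Vsig4 and S100a8 with S100a9 lie along a line (r from 0.74 to 0.98), while Cd79a with Cd79b and Cd3e with Cd3g scatter (r = 0.19 and 0.05). The mean scores of Cd79a, Cd79b and Cd3g, and also of S100a8 and S100a9, were below the array medians.

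**Figure D4:**
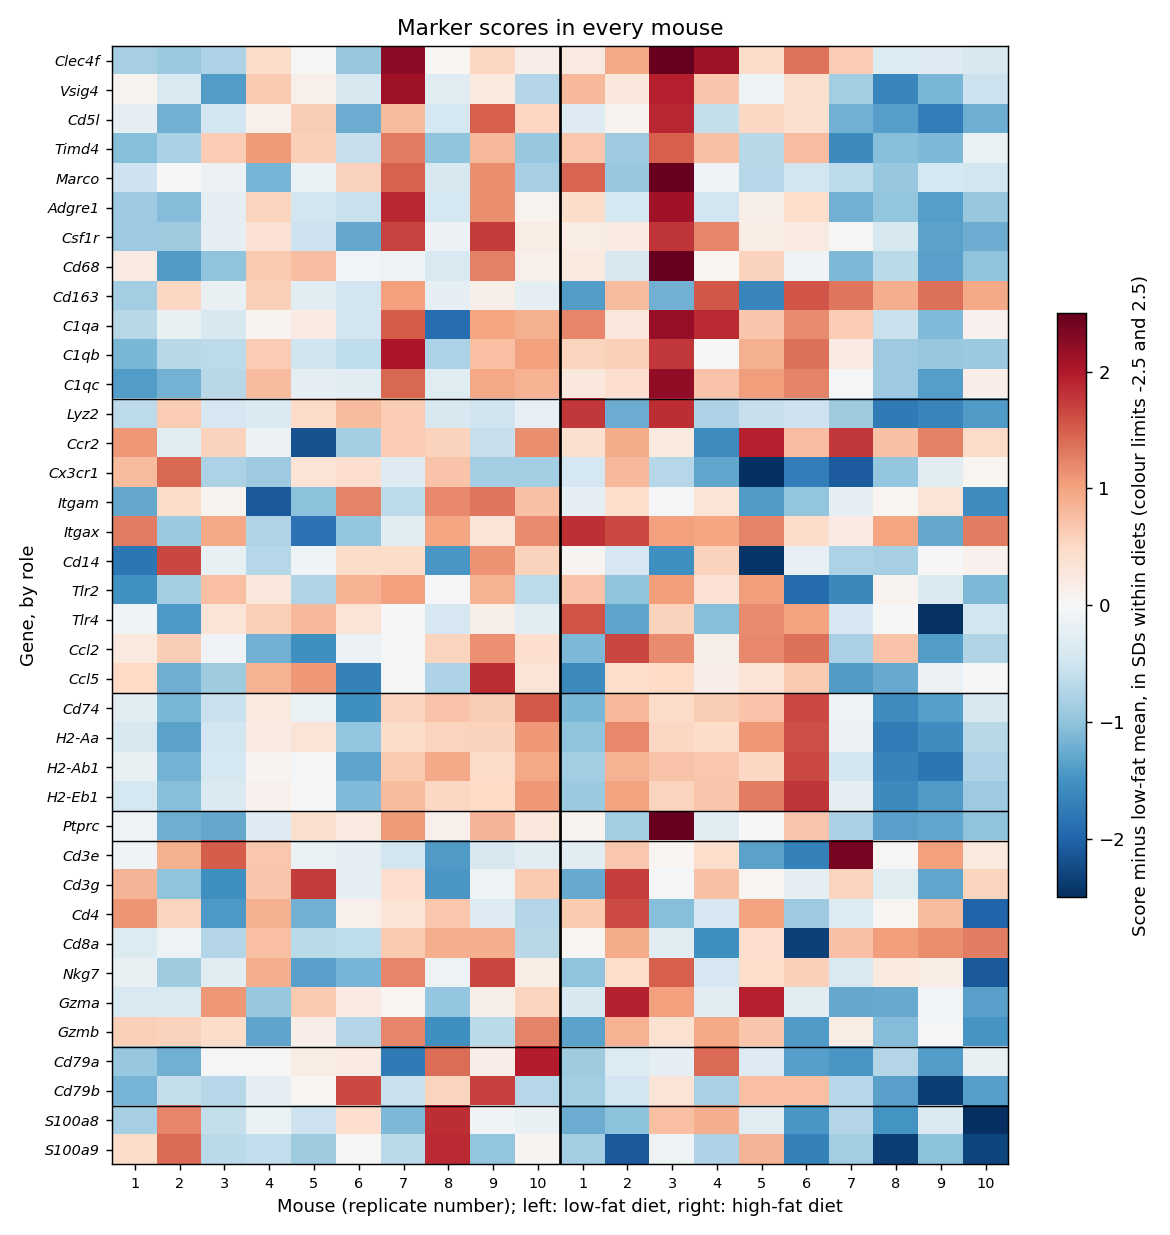
Score of the 38 markers (rows, in blocks by role) in the 20 mice (columns, low-fat diet left of the line), as the deviation from the low-fat mean in SDs within diets. The resident macrophage block is high in low-fat replicate 7 and high-fat replicate 3, and the class II block is highest in high-fat replicate 6.

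Other genes of the same cells were read from separate lists. Of 21 other macrophage genes only Cd9 passed, beside 3.49% of all genes, and Cd9 fell. Cd9, a tetraspanin of lipid-associated macrophages that many other cell types also make, ran from -1.75 to 2.32 (median -0.12) on low fat and from -4.48 to -1.48 (median -2.89) on high fat. Only the lower end of the low-fat range overlapped with the high-fat mice. The difference was -2.97 (95% interval -4.26 to -1.65, limma adjusted p = 9.24e-04), and its adjusted p without any single array stayed between 4.85e-04 and 0.00236. Another 3 genes of that list had an unadjusted p under 0.05 without passing, and they are named after their values were seen. With Cd9 they made 19.0% of the list, close to the 17.0% of all genes under that p by limma. The iron exporter Slc40a1, abundant in Kupffer cells, stood at -1.41 (-2.38 to -0.41, adjusted p = 0.0822 by limma), the lipid receptor Trem2 at -1.14 (adjusted p = 0.181 by limma) and the mannose receptor Mrc1 at -0.999 (adjusted p = 0.248 by limma). The median of that list was -0.21, with 14 of 21 genes below the low-fat mean.

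Of 21 other monocyte and inflammatory genes 0 passed, with a median of 0.13. The list had 12 genes above and 9 below the low-fat mean (lowest -0.61). The fractalkine gene Cx3cl1, whose receptor is Cx3cr1, stood at 1.22 (95% interval 0.24 to 2.17, limma adjusted p = 0.142), the endosomal receptor Tlr7 at 0.89 and the NF-kappa-B inhibitor Nfkbia at 0.72. Of 12 other antigen-presenting genes 0 passed (median -0.20), with the dendritic cell receptors Flt3 at 0.88, Siglech at -0.85 and Xcr1 at 0.65. In the list of 17 other T and natural killer genes 0 passed (median 0.21), with 11 above and 6 below the low-fat mean (lowest -0.67). The receptor Klrk1 stood at 0.96, the cytokine Ifng at 0.92 and the receptor Ncr1 at 0.89. In the list of 7 other B and plasma cell genes 0 passed (median 0.16), with 5 above and 2 below the low-fat mean (lowest -0.63). The plasma cell protein Mzb1 stood at 0.99, the kinase Blk at 0.65 and the antibody chain Ighm at 0.63.

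Markers of the other cell types in liver also gave 0 calls in the main limma fit. The 8 sinusoidal endothelial genes had a median of 0.62, with 6 above and 2 below the low-fat mean (lowest -0.64). Those with the smallest p were Fcgr2b at 0.92, Pecam1 at 0.87 and Clec4g at 0.66. The 8 stellate cell and fibroblast genes had a median of 0.52, with 6 above and 2 below (lowest -0.33). Rgs5 stood at 1.19, Reln at 1.00 and Colec11 at 0.73. The medians of hepatocyte (6 genes), bile duct (4 genes), erythroid (3 genes) and platelet genes (4 genes) were -0.15, -0.20, -0.16 and 0.07. Ttr, a secreted hepatocyte protein, stood at -3.12 (95% interval -4.43 to -1.76) without passing (limma adjusted p = 0.224). The size and its interval use the SD of the gene itself, whereas the limma p uses a moderated SD, so the 2 can differ. The unmoderated model uses the gene's own SD. Cd9, with a smaller size (-2.97), passed that model (unmoderated adjusted p = 0.00144), so Ttr passed it too. Apoa1 stood at 1.35 and Tat at 0.35 among the hepatocyte genes, Epcam at -0.65, Krt19 at -0.29 and Krt7 at 0.15 among bile duct genes, Alas2 at 0.51, Slc4a1 at -0.17 and Hba-a1 at -0.16 among erythroid genes, and Itga2b at -1.07, Gp9 at 0.63 and Pf4 at 0.50 among platelet genes. Whether cell type content contributed to any difference among the markers was not tested.

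Of the 38 members 11 had several probe sets, 23 beyond those used. Of these 23, 0 passed an adjusted p of 0.05 over all probe sets by limma and 1, that of Ccr2, had an unadjusted p under 0.05. Their standardised differences ran from -0.51 to 1.55, and 11 of 23 had the sign of the probe set used.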

How the data were processed

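The authors deposited 1 column of scores per array. How probes were summarised and arrays normalised is not given in the labels used here. Per the labels' protocols, RNA was isolated with TRIzol and labelled with a 3′ IVT kit. Of 45037 probe sets that are not controls, 34945 had 1 gene symbol in the platform annotation, 932 several and 9160 none. In 98.2% the SD over arrays was below 0.001. No filter on low values was used, and 0 columns belonged to other samples. The comparison of the diets used R 4.3.3 and limma 3.58.1 (a two-sided moderated test with no covariate, Benjamini-Hochberg over all 18193 genes, threshold 0.05); the prior had 0.724 degrees of freedom. Correlations used Python 3.11.15 and scipy 1.17.1. Fits were tested on simulated data. The members, lists and pairs were chosen with earlier results of these data known. All members are named; of each other list, genes past the threshold or else the 3 with the smallest p, and 3 macrophage genes (Slc40a1, Trem2 and Mrc1) chosen after their values were seen. Of the other lists, 18 genes had no named probe set. Alternatives were quantile normalisation, median centring, the replicate block, a robust variance trend, an unmoderated model, array weights, omission of cross-hybridising probe sets, the mean of probe sets, the genes above the median by mean score, a rank sum test, a threshold of 0.01, a spike-in covariate (24 probe sets) and leaving out each array. The pair H2-Eb1 and Cd74 was added after seeing the data. The number of arrays limits the precision.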

Additional observations from a re-analysis of the deposited data

Results flagged for a closer look

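For each of the 38 genes and each diet the most extreme mouse was tested for its gap to the next, 76 tests in all. In 7 of them a mouse stood apart, and chance gives about 1 in 20. The tests reuse the same mice for genes that vary together, so the 7 are not separate events. High-fat replicate 3 lay above the rest for Adgre1 (gap over range 0.473), Cd68 (0.524) and Ptprc (0.475). Without it the standardised differences were -0.58, -0.56 and -0.72, with limma adjusted p-values of 0.558, 0.574 and 0.449. For Clec4f, low-fat replicate 7 lay high (0.539), and without it the difference was 1.13 (adjusted p = 0.198 by limma). For Ccr2, high-fat replicate 4 lay low (0.517), and without it the difference was 1.11 (limma adjusted p = 0.215). For Itgax, high-fat replicate 9 lay low (0.480), and without it the difference was 1.22 (limma adjusted p = 0.196). For Cd79a, high-fat replicate 4 lay high (0.562), and without it the difference was -0.86 (limma adjusted p = 0.426).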

How the results depend on the processing

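No member passed in 30 of 32 alternative settings, among them all 20 fits without 1 array. Over all genes those fits called 498 to 720. Of the 30 settings, the threshold of 0.01 could give no other result, because no member passed the looser main threshold on the same fit. The setting limited to genes above the median by mean score tested 23 of the 38 members. It left out S100a9, the member with the lowest adjusted p. The count over all genes was 1488 after quantile normalisation (868 genes were the same on all arrays and gave no test), 15098 after median centring, 421 with the replicate block, 413 with the spike-in covariate and 212 at a threshold of 0.01. Quantile normalisation called 6 members: 3 resident macrophage genes, 2 monocyte genes and 1 neutrophil gene. Of these, Cd5l (1.87), Csf1r (-1.49), C1qb (-1.54) and Itgax (-1.87) turned sign; the cause was not tested. Median centring called 23 members: 4 resident macrophage, 8 monocyte, 7 T and cytotoxic, 2 B cell and 2 neutrophil genes. Csf1r (-1.31), C1qb (-1.11), Itgax (-1.26), Ccl2 (-1.32), Cd3e (-1.19), Cd3g (-1.31) and Cd8a (-1.31) turned sign there, a step that subtracts the array median, itself higher on the high-fat diet, from every gene. Among the pairs, quantile normalisation gave r = -0.018 for C1qa with C1qb, 0.33 for C1qa with C1qc, 0.18 for C1qb with C1qc, 0.42 for S100a8 with S100a9, 0.10 for Clec4f with Vsig4, -0.33 for Clec4f with Cd5l and 0.62 for Cd3e with Cd3g; the cause was not tested. Median centring gave 0.97 for Cd79a with Cd79b, 0.97 for Cd3e with Cd3g and 0.96 for Nkg7 with Gzma. All 12 pairs kept their side of the threshold without any single array. No pairing by replicate number was seen: same-numbered mice correlated at -0.16 to 0.26, above 0.1 in 2 of 10 pairs. Of 10 low-fat mice, 1 correlated best with its own number. A pairing that left little correlation could be missed by this check. The replicate block called 0 members.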
